A study of Homo sapiens with 12 samples.

Results

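The genes described here are 10 targets and inhibitors of canonical WNT signalling, measured in HCT116 cells with and without a knockout of PPM1G. They were taken by symbol from the deposited tables: DACT1, DKK1, AXIN2, RNF43, ZNRF3, LGR4, TCF7, SOX4, SOX9 and CD44. All 10 symbols were found in both tables, among 56104 gene IDs. Of these, 9 passed the filter on low counts in 4sU-seq and 10 in RNA-seq, each in the KO libraries and in the Ctrl libraries alike.

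HCT116 is a colorectal carcinoma line, and PPM1G encodes a nuclear serine/threonine phosphatase. The study measured KO cells, labelled PPM1G KO, against Ctrl cells, labelled Ctrl KO. There were 4 groups of 3 libraries: 4sU-seq KO, 4sU-seq Ctrl, RNA-seq KO and RNA-seq Ctrl. In 4sU-seq, cells took up the nucleoside analogue 4-thiouridine (500 µM) during a 10 min pulse, and the labelled RNA was biotinylated and pulled down, so these libraries hold newly made RNA. RNA-seq measured steady-state RNA. All cells were below passage 15, and the 12 libraries held ERCC spike-in RNA. The sources used here do not say whether the KO cells are 1 clone, which site was edited, or how the Ctrl cells were made. The 4sU-seq replicates are called biological in the protocol, whereas nothing says that the RNA-seq replicates came from separate cultures, so the RNA-seq p-values measure the spread between these libraries, which may be technical. Since the KO cells may be 1 clone, the p-values of both assays may not cover the spread between independent knockouts.

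The 4sU-seq libraries held 79403238 to 101884166 gene counts and the RNA-seq libraries 30962756 to 42479828. Levels are given as CPM, counts scaled to the TMM-normalised library size, and the detection floor of 3 counts in a library corresponded to 0.0294 to 0.0378 CPM in 4sU-seq and 0.0706 to 0.0969 CPM in RNA-seq, for counting error only. PPM1G averaged 115 ± 24.7 CPM in KO and 249 ± 19.2 CPM in Ctrl in 4sU-seq, and 97.0 ± 1.68 CPM in KO and 317 ± 20.5 CPM in Ctrl in RNA-seq (SD, n = 3 each), a decrease in KO in both (adjusted p = 0.00717 and 1.77e-10). Scaled to the ERCC spike-ins, the log2 change of PPM1G in 4sU-seq was −0.93 with adjusted p = 0.196. A library stood apart: 4sU-seq KO replicate 2 differed from KO replicates 1 and 3 by a chi-square per degree of freedom of 303 and 400, whereas KO replicates 1 and 3 differed by 31.4 and the Ctrl pairs by 62.0 to 92.9. Some results in 4sU-seq are therefore also given without it. Without it the log2 change in 4sU-seq was −1.37 for PPM1G, 0.52 for RNF43, −1.36 for SOX4 and 0.05 for CD44. RNA-seq KO replicates 1 and 2 were the most alike, at 1.71 against 10.5 to 19.0 for the other pairs of that assay, and were kept as separate libraries. Epithelial markers (EPCAM, CDH1, KRT8, KRT18, KRT19, VIL1 and CDX1) summed to 2577 to 2688 CPM in KO and 2755 to 3157 CPM in Ctrl in RNA-seq, with CDX1 at 0. The 5 leukocyte markers summed to under 1 CPM in every RNA-seq library, and the fibroblast markers COL1A2, DCN and LUM were at 0. Over all 5 fibroblast markers, the sum was 9.76 to 11.1 CPM in KO and 4.28 to 6.28 CPM in Ctrl in RNA-seq. The 4 endothelial markers summed to 12.7 to 12.9 CPM in KO and 5.97 to 6.68 CPM in Ctrl in 4sU-seq. In RNA-seq their sum was 0.539 to 0.710 CPM in KO and 0.195 to 0.448 CPM in Ctrl. In 4sU-seq the leukocyte markers summed to 3.08 to 3.81 CPM in KO and 3.55 to 4.10 CPM in Ctrl. The fibroblast markers summed there to 9.72 to 13.7 CPM in KO and 5.00 to 5.94 CPM in Ctrl. The part of these sums in the results below was not tested.

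In canonical WNT signalling, a WNT ligand binds a Frizzled receptor and its LRP co-receptor, the complex that marks β-catenin for destruction is held back, and β-catenin enters the nucleus, where it works with TCF/LEF factors on target genes. Many targets act back on the pathway: AXIN2 rebuilds the destruction complex, RNF43 and ZNRF3 clear Frizzled from the cell surface, and DKK1 blocks LRP. HCT116 is known to carry a stabilising mutation of β-catenin, so its pathway is active in part without ligand. In the intestine the same pathway keeps the stem cells at the base of the crypt.

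The 10 genes did not change in a common direction. In nascent RNA, DKK1 and RNF43 rose in KO, and DACT1 and SOX4 fell. In steady-state RNA, DKK1, RNF43 and LGR4 rose, and DACT1, SOX4, SOX9, CD44 and TCF7 fell. AXIN2 and ZNRF3 passed edgeR's test in neither assay. In 4sU-seq, DESeq2's Wald test also called AXIN2 (−0.47, adjusted p = 0.0316) and LGR4 (0.69, adjusted p = 0.0348). Thus 4 of the 9 genes tested in 4sU-seq passed an adjusted p threshold of 0.05 (2 higher, 2 lower), where 19.6% of all 21236 genes tested did (12.6% higher, 6.98% lower). In RNA-seq 8 of 10 passed (3 higher, 5 lower), against 48.4% of 20415 genes (21.5% higher, 26.8% lower). Called in the same direction in both assays were 4 of the 9 genes tested in both, against 13.7% of 15863 genes. The median log2 change, KO over Ctrl, was 0.01 over the 9 genes in 4sU-seq and −0.15 over the 10 genes in RNA-seq, beside 0.05 and 0.00 over all genes tested. The CPM of the groups did not overlap for 2 higher and 3 lower genes in 4sU-seq, where 20.6% and 17.8% of all genes stood so (38.4% in all), and for 3 higher and 5 lower genes in RNA-seq, where 26.1% and 29.9% did (56.1% in all). Log2 changes are given ± a standard error taken from the F test. In bulk RNA, fewer cells that express a gene and less RNA of it per cell cannot be told apart.

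**Figure D1:**
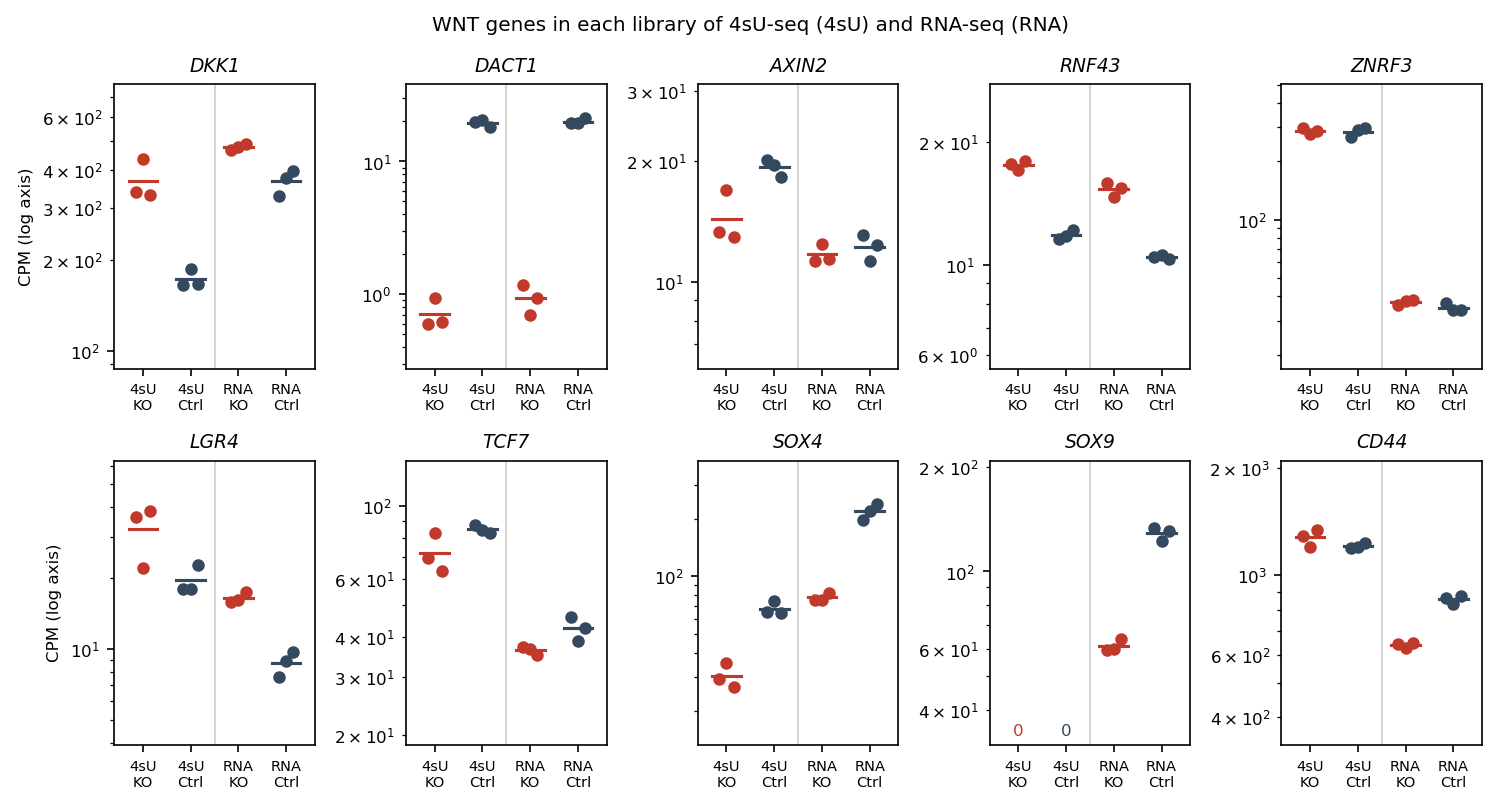
Normalised CPM (log axis) of the 10 WNT genes in each library, with 4sU-seq (4sU) left and RNA-seq (RNA) right of the grey line, KO in red and Ctrl in blue; bars are means of 3 libraries and a printed 0 marks SOX9, listed at 0 counts in 4sU-seq. DACT1 stands near 1 CPM in every KO library and near 20 CPM in every Ctrl library, while the ZNRF3 libraries of KO and Ctrl overlap in both assays.

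Levels were compared between genes per length, as CPM per kb of gene span in 4sU-seq and per kb of exon in RNA-seq. DKK1 was the most abundant of the 9 genes with a nascent level and of the 10 in steady-state RNA, with 98.1 ± 15.5 in KO and 46.4 ± 3.29 in Ctrl per kb of span in nascent RNA, and 217 ± 4.71 in KO and 166 ± 16.2 in Ctrl per kb of exon in steady-state RNA. CD44 came next, with 63.9 ± 1.13 in KO and 85.6 ± 2.12 in Ctrl per kb of exon. In RNA-seq Ctrl libraries the order then ran SOX4, SOX9, ZNRF3, DACT1, TCF7, AXIN2, RNF43 and LGR4, where SOX4 overlapped SOX9, DACT1 overlapped TCF7, and RNF43 overlapped LGR4. In RNA-seq KO libraries DACT1 came last, at 0.208 ± 0.0535 in KO against 4.45 ± 0.229 in Ctrl per kb of exon, and LGR4 stood above AXIN2 and RNF43, with no overlap between neighbours in that order.

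DACT1 and DKK1 are inhibitors that act at different points. DACT1 encodes an intracellular scaffold that binds Dishevelled and can dampen WNT signalling, and it fell more than any other of the 9 genes tested in 4sU-seq and of the 10 in RNA-seq. The gene lies on chromosome 14, bases 58633967 to 58648321 of the plus strand (hg38), with 14.4 kb of span. In 4sU-seq it stood at 0.594, 0.934 and 0.615 CPM in KO replicates 1 to 3, against 19.8, 20.5 and 18.2 CPM in Ctrl. Steady-state levels were 1.17, 0.693 and 0.933 CPM in KO, against 19.4, 19.4 and 21.2 CPM in Ctrl. Every KO library lay far below every Ctrl library. The mean was 27.3-fold lower in KO in nascent RNA (log2 −4.77 ± 0.22, adjusted p = 0.000145) and 21.4-fold lower in steady-state RNA (−4.42 ± 0.13, adjusted p = 2.61e-11). Counted from the lowest log2 change, DACT1 ranked 14 among the 21236 genes tested in 4sU-seq and 17 among the 20415 in RNA-seq. Without 4sU-seq KO replicate 2, which had the highest DACT1 level of the KO libraries, the nascent change was −5.08.

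DKK1, a secreted protein that binds the LRP5 and LRP6 co-receptors and keeps WNT ligands from using them, rose in KO. The gene lies on chromosome 10, bases 52314296 to 52318042 of the plus strand, and is 3.7 kb long. Its nascent levels were 337, 435 and 331 CPM in KO, against 166, 188 and 167 CPM in Ctrl, a mean 2.12-fold higher (log2 1.08 ± 0.14, adjusted p = 0.00414). Its steady-state levels were 467, 479 and 488 CPM in KO, against 327, 376 and 397 CPM in Ctrl, with a smaller change (0.38 ± 0.07, adjusted p = 0.000435). The groups did not overlap in either assay, and KO replicate 2 was the highest nascent library. Without it the nascent change was 0.87, and with scaling to the ERCC spike-ins it was 1.27 with adjusted p = 0.0972. Of the span of DKK1, 5.7% at its start overlaps PRKG1-AS1, an antisense gene on the minus strand, which also rose, by 1.15 in 4sU-seq and 0.60 in RNA-seq. The strand setting of the counting is not given in the sources used here, so reads of the pair cannot be told apart in that stretch.

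To set the changes beside DNA that β-catenin's TCF/LEF partners could read, the windows of 250 bases before the gene start were taken from RefSeq (GRCh38.p14), which held entries for 7 of the 10 genes. The search was for ATCAAAG and the shorter TCAAAG it contains, on both strands (reverse complements CTTTGAT and CTTTGA). Shown here are the windows of the inhibitor that rose and the inhibitor that fell, 5′ to 3′, with matches to the shorter motif in capitals. The first is chr10:52314031-52314280, plus strand, and the second chr14:58637712-58637961, plus strand. The table holds 3 DACT1 starts. The window of the most upstream start, the nearest to the GENCODE start, is not printed because 94 of its bases lie in an exon of DACT1, and the printed one belongs to the middle start, inside the gene as placed above.
DKK1: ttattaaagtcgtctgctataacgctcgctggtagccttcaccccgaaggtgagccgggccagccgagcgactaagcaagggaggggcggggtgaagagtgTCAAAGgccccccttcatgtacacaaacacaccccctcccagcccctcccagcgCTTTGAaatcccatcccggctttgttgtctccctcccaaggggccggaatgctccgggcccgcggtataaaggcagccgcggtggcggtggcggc
DACT1: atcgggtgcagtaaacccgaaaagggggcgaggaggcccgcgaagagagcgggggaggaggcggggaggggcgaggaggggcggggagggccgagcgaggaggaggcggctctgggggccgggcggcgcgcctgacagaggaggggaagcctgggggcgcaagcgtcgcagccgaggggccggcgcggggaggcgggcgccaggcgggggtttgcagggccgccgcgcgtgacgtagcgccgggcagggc
The DKK1 window held 2 matches to the shorter motif, which begin 149 and 95 bases before the start. The DACT1 window held no match in its 250 bases, and of the other 2 DACT1 windows, the most upstream held 1 match, 214 bases before its start, so the count for DACT1 depends on the start taken. Of the 7 genes, only DKK1 and DACT1 had a window with the shorter motif, and the windows of RNF43, LGR4, TCF7, SOX4 and CD44 held none. All 250 bases of the SOX4 window and of the CD44 window lie in GENCODE exons of the gene itself. In the more upstream windows of TCF7 and RNF43, 75 and 61 bases do. The absence of a match there does not describe sequence upstream of the gene alone. At least 1 match to TCAAAG was found in 11.2% of 35116 windows of this length, and ATCAAAG, which none of the windows of the 7 genes held, in 2.3%. These shares are per window, and the 7 genes had 11 windows, so a count of genes cannot be set directly beside them. A match describes letters only, and no binding was measured.

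AXIN2, RNF43 and ZNRF3 encode feedback inhibitors, and LGR4 encodes a receptor that works against RNF43 and ZNRF3. RNF43 rose in both assays, LGR4 rose in steady-state RNA, and the nascent changes of LGR4 and AXIN2 passed under some of the alternatives only. RNF43, a membrane ubiquitin ligase that removes Frizzled receptors, lies on chromosome 17, bases 58352500 to 58417595 of the minus strand. In 4sU-seq it stood at 17.7, 17.1 and 17.9 CPM in KO, against 11.5, 11.8 and 12.2 CPM in Ctrl. In RNA-seq it stood at 15.8, 14.6 and 15.5 CPM in KO, against 10.4, 10.6 and 10.3 CPM in Ctrl. The groups were well apart in both assays, with mean ratios of 1.48 and 1.47 (log2 0.57 ± 0.11, adjusted p = 0.0139, and 0.55 ± 0.07, adjusted p = 1.66e-05). The nascent call was lost without any of Ctrl replicates 1, 2 and 3 or KO replicate 1 (0.53 to 0.56, adjusted p = 0.0747 to 0.098) and under ERCC scaling (0.81, adjusted p = 0.338); the steady-state call held in every fit that left out a library. Of the span of RNF43, 97.2% lies within the spans of other genes, chiefly the antisense gene TSPOAP1-AS1. SUPT4H1, which overlaps RNF43 on the same strand, had 0 counts in every 4sU-seq library and 2444 to 3755 counts in RNA-seq. The counting of reads in shared stretches is not given in the sources used here. The part of RNF43 behind its nascent counts is therefore not known.

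ZNRF3, the paralogue of RNF43 with the same role, lies on chromosome 22, bases 28883592 to 29057487 of the plus strand, and is the longest of the 10 at 173.9 kb. It had 297, 278 and 288 CPM in KO, against 268, 290 and 299 CPM in Ctrl, in 4sU-seq, and 36.2, 38.1 and 38.3 CPM in KO, against 36.9, 34.0 and 34.1 CPM in Ctrl, in RNA-seq. The groups overlapped in both assays (log2 0.01 ± 0.09, adjusted p = 0.95, and 0.10 ± 0.06, adjusted p = 0.173). The nascent change had either sign when 1 library was left out (−0.04 to 0.01) and was −0.03 with DESeq2 size factors. In RNA-seq the difference passed the test without Ctrl replicate 1 (0.18, adjusted p = 0.01), the highest of the Ctrl libraries, with library size alone (0.28, adjusted p = 0.00198) and over genes with a mean of at least 50 counts (0.17, adjusted p = 0.0217).

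AXIN2, the inducible scaffold of the destruction complex and a common readout of the pathway, lies on chromosome 17, bases 65528563 to 65561647 of the minus strand. In 4sU-seq it stood at 13.3, 16.9 and 12.9 CPM in KO, against 20.1, 19.5 and 18.3 CPM in Ctrl. All KO libraries were below all Ctrl libraries, but the change did not pass the test with the 3 KO libraries (log2 −0.43 ± 0.15, adjusted p = 0.0892) and did without KO replicate 2, the highest of them (−0.63, adjusted p = 0.00159). With the 6 libraries it passed under DESeq2 (given above), with a replicate block (−0.44, adjusted p = 0.043) and in the joint fit of 12 libraries (−0.41, adjusted p = 0.0111). Steady-state AXIN2 was at 11.3, 12.4 and 11.4 CPM in KO, against 13.1, 11.3 and 12.4 CPM in Ctrl. These groups overlapped, with means of 11.7 ± 0.62 CPM in KO and 12.2 ± 0.913 CPM in Ctrl (SD, n = 3 each), and the log2 change of −0.06 ± 0.08 (adjusted p = 0.525) was positive under ERCC scaling (0.02) and library size alone (0.12). Of the span of AXIN2, 71.2% lies within that of CTD-2535L24.2 on the same strand, which had 9.99, 5.51 and 9.38 CPM in KO, against 6.16, 5.64 and 7.27 CPM in Ctrl, in 4sU-seq. The part of AXIN2 behind its nascent counts is likewise not known.

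LGR4 is a receptor for R-spondins, which with these ligands takes RNF43 and ZNRF3 off the membrane. It lies on chromosome 11, bases 27365961 to 27472775 of the minus strand. In RNA-seq it stood at 15.8, 16.2 and 17.4 CPM in KO, against 7.62, 8.88 and 9.70 CPM in Ctrl. The groups were apart, and the mean was 1.89-fold higher in KO (log2 0.92 ± 0.09, adjusted p = 1.98e-06). Nascent LGR4 was at 36.3, 22.0 and 38.6 CPM in KO, against 18, 18 and 22.6 CPM in Ctrl. KO replicate 2 lay within the range of the Ctrl libraries, and the change was 0.73 ± 0.24 with adjusted p = 0.0797. Without that library it was 0.87 with adjusted p = 0.00157. With the 6 libraries the nascent change passed under DESeq2, with a replicate block (0.69, adjusted p = 0.0195), with the gene span trend removed (0.52, adjusted p = 0.019), in the joint fit of 12 libraries (0.76, adjusted p = 0.0137) and, narrowly, with library size alone (0.81, adjusted p = 0.0494).

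TCF7, SOX4, SOX9 and CD44 are targets that carry other functions. SOX4 and SOX9 encode HMG-box transcription factors of the crypt and of colorectal tumours, and both fell in steady-state RNA of KO, to means 2.81-fold and 2.11-fold lower. SOX4, a single-exon gene, lies on chromosome 6, bases 21592768 to 21598619 of the plus strand. The nascent levels of SOX4 were 29.2, 35.6 and 26.6 CPM in KO, against 65.0, 74.8 and 64.4 CPM in Ctrl. Its steady-state levels were 75.6, 75.6 and 82.1 CPM in KO, against 197, 220 and 238 CPM in Ctrl. No KO library reached a Ctrl library in either assay. The mean was 2.23-fold lower in KO in nascent RNA (log2 −1.16 ± 0.15, adjusted p = 0.0044) and 2.81-fold lower in steady-state RNA (−1.49 ± 0.07, adjusted p = 3.62e-09). Under ERCC scaling the nascent change was −0.97 with adjusted p = 0.138.

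SOX9, a factor of stem and Paneth cells in the crypt, lies on chromosome 17, bases 72121020 to 72126420 of the plus strand. The RNA-seq libraries gave 59.4, 59.7 and 64.1 CPM in KO, against 133, 123 and 131 CPM in Ctrl. The groups did not overlap, and the mean was 2.11-fold lower in KO (log2 −1.08 ± 0.06, adjusted p = 1.3e-08). In 4sU-seq the table listed SOX9 at 0 counts in all 6 libraries, so it was not tested there. The whole gene lies within the span of SOX9-AS1 on the opposite strand, which had 10.5, 10.2 and 9.57 CPM in KO, against 7.54, 7.93 and 7.12 CPM in Ctrl, in 4sU-seq. Among genes with at least 3000 RNA-seq counts over the 6 libraries, 412 of 425 that lie inside another gene's span were listed at 0 in every 4sU-seq library (96.9%), against 54 of 8605 that do not (0.6%). The nascent level of SOX9 therefore cannot be read from this table.

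CD44 encodes a hyaluronan receptor of the cell surface. It lies on chromosome 11, bases 35138870 to 35232402 of the plus strand. In RNA-seq it stood at 643, 626 and 647 CPM in KO, against 864, 833 and 873 CPM in Ctrl, a mean 1.34-fold lower (log2 −0.42 ± 0.05, adjusted p = 2.71e-05), with no overlap. Nascent CD44 was at 1292, 1199 and 1341 CPM in KO, against 1194, 1199 and 1234 CPM in Ctrl. These groups overlapped (0.08 ± 0.08, adjusted p = 0.515).

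TCF7 encodes TCF1, a member of the family of factors that bring β-catenin to DNA. It lies on chromosome 5, bases 134114711 to 134151865 of the plus strand. The RNA-seq libraries gave 37.2, 36.6 and 35.1 CPM in KO, against 46.0, 38.8 and 42.5 CPM in Ctrl (log2 −0.23 ± 0.07, adjusted p = 0.0112). In 4sU-seq it stood at 69.7, 83.0 and 63.4 CPM in KO, against 87.6, 84.5 and 83.0 CPM in Ctrl (−0.24 ± 0.13, adjusted p = 0.251). KO replicate 2 was again nearest to Ctrl, and without it the nascent change was −0.42 with adjusted p = 0.00599. The steady-state call was lost without Ctrl replicate 1 (−0.12, adjusted p = 0.12) or Ctrl replicate 3 (−0.20, adjusted p = 0.0565), under ERCC scaling (−0.15, adjusted p = 0.337) and with library size alone (−0.04, adjusted p = 0.648). That call was also lost over genes with a mean of at least 50 counts (−0.16, adjusted p = 0.0599) and in the joint fit of 12 libraries (−0.20, adjusted p = 0.144).

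**Figure D2:**
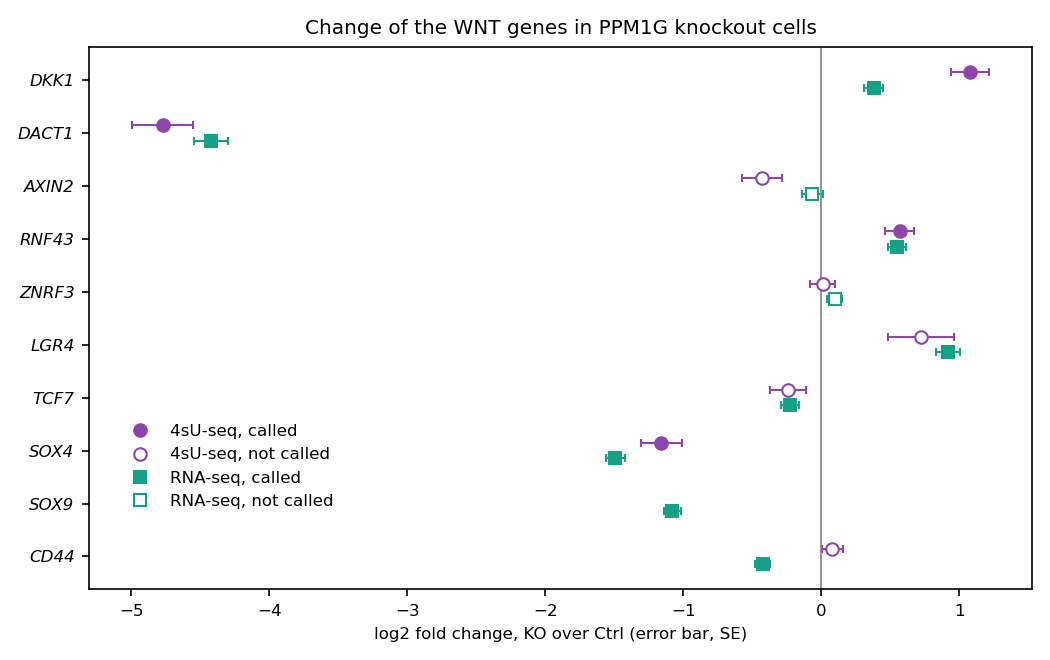
Log2 fold change, KO over Ctrl, of each WNT gene in 4sU-seq (circles) and RNA-seq (squares); error bars are standard errors, filled symbols passed the adjusted p threshold of 0.05, and SOX9 has no 4sU-seq value. DACT1 lies near −4.77 and −4.42, and DKK1 and CD44 have a 4sU-seq value right of their RNA-seq value by 0.70 and 0.51.

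Whether nascent and steady-state RNA changed by different amounts was tested for the 9 genes kept in both assays. The 4sU-seq change lay above the RNA-seq change for DKK1 by 0.70 ± 0.14 (adjusted p = 0.0315) and for CD44 by 0.51 ± 0.10 (adjusted p = 0.0312). These 2 of 9 compare with 2.5% of all 15863 genes called either way and 1.25% called with 4sU-seq above. DKK1 thus rose more in nascent than in steady-state RNA, whereas CD44 fell in steady-state RNA and its nascent change, of the other sign, did not pass the test. For the other 7 the differences lay between −0.37 ± 0.15 for AXIN2 (adjusted p = 0.244) and 0.33 ± 0.15 for SOX4 (adjusted p = 0.314). For DACT1 the difference was −0.36 ± 0.26 (adjusted p = 0.551), and for RNF43 it was 0.02 ± 0.11 (adjusted p = 0.954). Both calls sat close to the threshold. The DKK1 call was lost without any of 4sU-seq Ctrl replicates 1 and 3, RNA-seq KO replicates 1, 2 and 3 and RNA-seq Ctrl replicates 2 and 3 (0.62 to 0.71, adjusted p = 0.0746 to 0.0995). The CD44 call was lost without any of 4sU-seq KO replicate 1, 4sU-seq Ctrl replicates 1, 2 and 3 and the 6 RNA-seq libraries (0.46 to 0.55, adjusted p = 0.0629 to 0.102). Both calls were lost without a filter (0.63 for DKK1 and 0.44 for CD44, adjusted p = 0.106 and 0.083). They were also lost under ERCC scaling and with RNA-seq KO replicates 1 and 2 added together. With the gene span trend removed the CD44 call was lost (0.38, adjusted p = 0.124). With library size alone the DKK1 call was lost (0.59, adjusted p = 0.0897). Without 4sU-seq KO replicate 2, DKK1 (0.60) and CD44 (0.58) stayed called and AXIN2 was called too (−0.46, adjusted p = 0.0147).

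**Figure D3:**
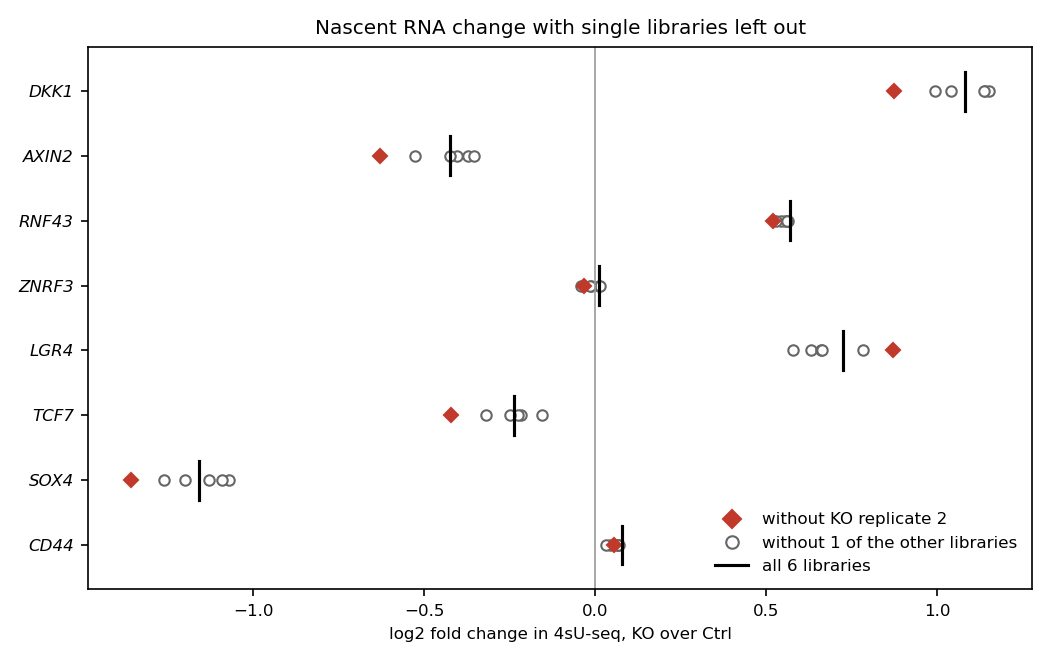
Log2 fold change in 4sU-seq, KO over Ctrl, for 8 WNT genes with all 6 libraries (black bars), without KO replicate 2 (red diamonds) and without each other library (open circles). Leaving out KO replicate 2 moved AXIN2, LGR4, TCF7 and SOX4 away from 0 and DKK1 towards 0; DACT1, at −4.77, lies off this scale.

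The rest of the pathway was read from 6 lists with 106 different genes, of which 92 were tested in 4sU-seq and 78 in RNA-seq. The lists held 111 entries, as 5 genes stand in more than 1 list, so their counts are not independent. The counts of each list are read beside the shares of all genes tested, 12.6% higher and 6.98% lower in 4sU-seq and 21.5% higher and 26.8% lower in RNA-seq. Of the WNT and R-spondin ligands, 8 of 19 tested rose and 1 fell in nascent RNA, and 8 of 15 rose and 1 fell in steady-state RNA. Some ligands passed the filter on low counts through the KO libraries alone, 2 in 4sU-seq and 4 in RNA-seq, and could hardly be called lower. Of the ligands that passed it in both groups, 6 of 16 rose and 1 fell in 4sU-seq, and 6 of 11 rose and 1 fell in RNA-seq. RSPO1, a ligand of LGR4, passed through KO alone in both assays, so no test of it is given. It had 284, 254 and 206 counts in KO, against 4, 5 and 5 in Ctrl, in 4sU-seq, and 30, 29 and 23 counts in KO, against 0, 1 and 1 in Ctrl, in RNA-seq. WNT11, a ligand best known for signalling without β-catenin, had 3.45, 4.89 and 2.85 CPM in KO, against 1.09, 1.28 and 1.24 CPM in Ctrl, in 4sU-seq (log2 1.63 ± 0.23, adjusted p = 0.00571). In RNA-seq it passed the filter through KO alone, with 33, 39 and 22 counts in KO, against 2, 5 and 5 in Ctrl. The ligand that fell in both assays was WNT16. It had 36.8, 31.8 and 40.7 CPM in KO, against 84.8, 84.9 and 89.1 CPM in Ctrl, in 4sU-seq (−1.24 ± 0.13, adjusted p = 0.00197), and 27.0, 27.9 and 28.4 CPM in KO, against 172, 194 and 206 CPM in Ctrl, in RNA-seq (−2.78 ± 0.07, adjusted p = 1.32e-11). Under ERCC scaling 3 ligands rose in 4sU-seq, and WNT16 changed there by −0.97 with adjusted p = 0.319.

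Of the genes for ligand release and receptors, 4 of 19 tested rose in 4sU-seq, 1 of them past the filter through KO alone, and 6 of 16 rose and 2 fell in RNA-seq. These counts lie near the shares called among all genes, 19.6% in 4sU-seq and 48.4% in RNA-seq. FZD7, a Frizzled receptor, had 23.9, 23.0 and 23.9 CPM in KO, against 12.9, 12 and 12.7 CPM in Ctrl, in RNA-seq (log2 0.91 ± 0.06, adjusted p = 7.83e-08), and FZD9 rose there by 0.80 ± 0.21 (adjusted p = 0.00606). Their changes in 4sU-seq were 0.99 ± 0.27 (adjusted p = 0.0461) and 1.37 ± 0.38 (adjusted p = 0.0496), and each call was lost without KO replicate 1 or any of the 3 Ctrl libraries, with changes about as large (0.83 to 1.13, adjusted p = 0.0969 to 0.168, for FZD7 and 1.16 to 1.66, adjusted p = 0.0763 to 0.181, for FZD9). Both calls were lost with DESeq2 size factors (adjusted p = 0.0543 and 0.0546) and without a filter (0.0618 and 0.0576), and that of FZD9 also without KO replicate 3 (1.57, adjusted p = 0.0522) and under ERCC scaling (1.49, adjusted p = 0.0509). Without KO replicate 2 their nascent changes were 0.61 and 0.91. Of the other WNT inhibitors, secreted and within the cell, 1 of 14 rose in 4sU-seq and 6 of 8 in RNA-seq, and none fell in either, with a steady-state median of 0.31. KREMEN1, a receptor of DKK1 that helps to remove LRP6, had 64.5, 86.8 and 56.3 CPM in KO, against 36.7, 39.0 and 34.3 CPM in Ctrl, in 4sU-seq (0.91 ± 0.18, adjusted p = 0.0172), and rose by 0.69 ± 0.06 in RNA-seq (adjusted p = 1.63e-06). Its nascent call was lost without KO replicate 1 or any of the Ctrl libraries (adjusted p = 0.0595 to 0.0899) and under ERCC scaling (adjusted p = 0.0894). That call was also lost with the gene span trend removed (0.80, adjusted p = 0.0826). Without KO replicate 2 the nascent change of KREMEN1 was 0.65.

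Inside the cell, the destruction complex and Dishevelled genes changed in steady-state RNA by small amounts. There 11 of 16 fell and 2 rose, where 26.8% of all genes fell and 21.5% rose, with a median log2 change of −0.23. The members that fell were AXIN1, GSK3A, GSK3B, CSNK1A1, CSNK1D, CSNK1E, BTRC, AMER1, TNKS, DVL1 and DVL2, and those that rose were APC2 and CTNNB1, the gene of β-catenin; all but AMER1 are named after their values were seen. AMER1, a scaffold of APC, had 15.9, 15.3 and 13.3 CPM in KO, against 21.1, 21.2 and 21 CPM in Ctrl (−0.50 ± 0.07, adjusted p = 5.45e-05). The count that fell was 4 under ERCC scaling and 4 with library size alone, where 4 rose. In the joint fit of 12 libraries, 2 fell and 0 rose in RNA-seq, where 26.7% of all genes were called. In 4sU-seq 0 of 16 passed edgeR's test, 0 had an unadjusted p under 0.05, and 0 passed with DESeq2; without KO replicate 2, 5 rose and 7 fell, in a fit that called 53.8% of all genes. Of the nuclear TCF factors and co-factors, 2 of 13 rose in 4sU-seq, and 2 of 12 rose and 6 fell in RNA-seq (3 fell under ERCC scaling, and 3 fell and 5 rose with library size alone), beside 19.6% of all genes called in 4sU-seq and 48.4% in RNA-seq. PYGO1, which reads histone marks for the β-catenin complex, rose by 1.76 ± 0.33 in 4sU-seq (adjusted p = 0.0146). It had 1.54, 0.778 and 1.59 CPM in KO, against 0.403, 0.290 and 0.462 CPM in Ctrl, in 4sU-seq. In RNA-seq it passed the filter through KO alone, with 30, 28 and 22 counts in KO, against 11, 3 and 6 in Ctrl. The nascent call of PYGO1 was lost without KO replicate 1, Ctrl replicate 1 or Ctrl replicate 2 (1.59 to 1.78, adjusted p = 0.0627 to 0.0726) and under ERCC scaling (2.07, adjusted p = 0.123).

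Other targets of the pathway moved in both directions. Of this list 5 of 15 rose and 1 fell in 4sU-seq, and 8 of 13 rose and 4 fell in RNA-seq, where 19.6% and 48.4% of all genes were called. In each assay 1 of those that rose, MMP7, passed the filter through KO alone. EPHB2, a guidance receptor of crypt cells, had 40.1, 41.2 and 41.8 CPM in KO, against 14.0, 11.7 and 13.9 CPM in Ctrl, in RNA-seq (log2 1.63 ± 0.07, adjusted p = 1.32e-09) and rose by 1.21 ± 0.11 in 4sU-seq (adjusted p = 0.00159; 0.0746 under ERCC scaling). MMP7, a matrix metalloproteinase, had 52, 63 and 43 counts in KO, against 6, 5 and 6 in Ctrl, in RNA-seq, and 41, 30 and 35 counts in KO, against 6 in each Ctrl library, in 4sU-seq. BMP4, a ligand of the TGF-β family, had 29, 31.6 and 31.7 CPM in KO, against 143, 129 and 142 CPM in Ctrl, in RNA-seq (−2.16 ± 0.07, adjusted p = 4.79e-11), and fell by 2.41 ± 0.20 in 4sU-seq (adjusted p = 0.00111). The 4 that fell in steady-state RNA were MYC, CCND1, JAG1 and BMP4, the first 3 named after their values were seen. Those that rose there were EPHB2, MMP7, EPHB3, TNFRSF19, SP5, PPARD, NKD1 and NOTUM. All of them but EPHB2 and MMP7 are named after their values were seen. NKD1 and NOTUM are also counted among the other WNT inhibitors. Without 4sU-seq KO replicate 2 the nascent counts, higher and lower, were 9 and 3 for ligands, 7 and 1 for receptors, 3 and 1 for inhibitors, 2 and 4 for nuclear factors and 6 and 3 for these targets, again where 53.8% of all genes were called.

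**Figure D4:**
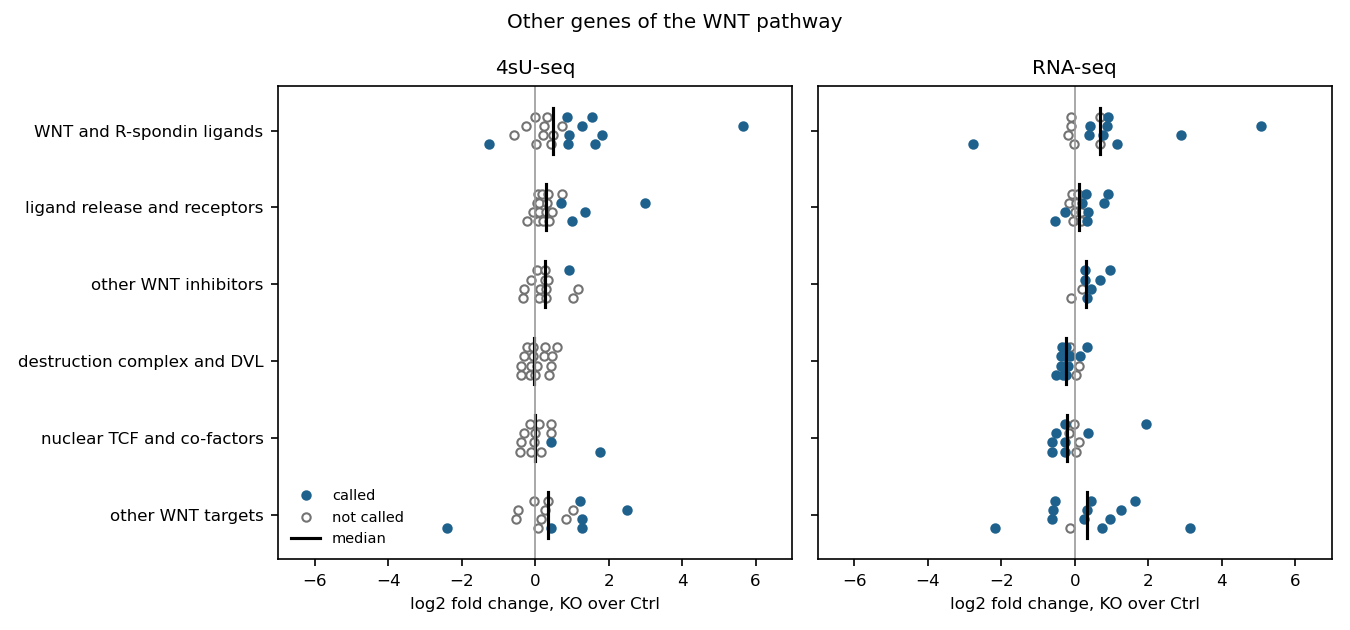
Log2 fold change, KO over Ctrl, of each tested gene in 6 lists of the WNT pathway, in 4sU-seq (left) and RNA-seq (right); filled points passed the adjusted p threshold of 0.05 and black bars are list medians. The destruction complex medians lie at −0.03 and −0.23, and the ligand points include 2 genes in 4sU-seq and 4 in RNA-seq that passed the filter on low counts through KO alone.

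For each of the 4 genes called in both assays, the gene with the most similar pattern was found by Pearson r of log2 CPM, centred within each assay, over the 12 libraries and 15863 genes. The closest to DACT1 was F3, the gene of tissue factor (r = 0.998), which changed by −1.77 in 4sU-seq and −1.76 in RNA-seq. The closest to DKK1 was ASPG (r = 0.986, with changes of 2.22 and 1.03), to RNF43 it was PRKCQ (r = 0.994, 1.97 and 2.54), and to SOX4 it was GNG5 (r = 0.994, −0.58 and −0.81). These values describe the same libraries and share the gap between KO and Ctrl, and between 106 and 449 genes had r above 0.95 to each of the 4.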

How the data were processed

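For each assay the authors deposited raw gene counts, a table of 56104 gene IDs and 92 ERCC spike-in species. The submitters' processing notes name FastQC 0.11.2, HISAT2 2.1.0, SAMtools 1.3 and featureCounts, with the build hg38. Not given in the sources used here are the annotation, the counted feature, the strand setting, and how multiply aligned reads were counted. A header line repeated inside each table was dropped.

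From the deposited counts, ERCC rows were left out, low genes were removed with filterByExpr (minimum count 10), TMM factors were set, and within each assay KO was tested against Ctrl by the two-sided quasi-likelihood F test of edgeR 4.0.16 with Benjamini-Hochberg adjustment over all genes tested. A standard error is the log2 change over the root of F. The difference between assays was the interaction of genotype and assay over 12 libraries and 15863 genes, with TMM within each assay. Coordinates, spans and overlaps were read from GENCODE 29 (hg38). It held 94.3% of the IDs, and the authors may have used another annotation. The fits were tested on simulated data. R 4.3.3, DESeq2 1.42.0, limma 3.58.1, Python 3.11.15 and matplotlib 3.10.9 were used.

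The 10 genes, the pathway lists, the tests and the alternatives were chosen with earlier results of these data known. Named were the 10 genes, PPM1G, up to 3 genes a pathway list called in both assays in the same direction with the smallest larger adjusted p, otherwise at most 1 called gene, and the gene most alike in pattern. Other pathway genes are said to be named after their values were seen. Alternatives were DESeq2 size factors, scaling to the ERCC sum, library size alone, TMM over 12 libraries at once, no filter or a filter at a mean of 50 counts, the DESeq2 Wald test, a replicate block, a correction of each library for gene span, a joint fit of all libraries, the omission of each library or of the 4sU-seq replicates numbered 2, and the sum of RNA-seq KO replicates 1 and 2 as 1 library.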

Additional observations from a re-analysis of the deposited data

Results flagged for a closer look

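The change of DKK1 in 4sU-seq lay above that in RNA-seq by 0.70 on the log2 scale in the test of the difference between assays. CD44 differed in the same direction by 0.51. Among the other pathway genes named, WNT16 differed by 1.55 (adjusted p = 0.00188), with a larger fall in RNA-seq. Under ERCC scaling WNT16 differed by 1.72 with adjusted p = 0.705. TCF7L2, a TCF factor named after its values were seen, differed by 0.68 (adjusted p = 0.0251). It stood at 2487, 2121 and 2350 CPM in KO, against 1606, 1778 and 1808 CPM in Ctrl, in 4sU-seq, and at 148, 145 and 155 CPM in KO, against 194, 168 and 172 CPM in Ctrl, in RNA-seq. The TCF7L2 difference was not called without any single library other than 4sU-seq KO replicates 2 and 3 (adjusted p = 0.0517 to 0.0881), nor with the trend in gene span removed (0.41, adjusted p = 0.326). Nor was it called under ERCC scaling (0.86), without a filter (0.61, adjusted p = 0.0533) or with RNA-seq KO replicates 1 and 2 added together (0.68, adjusted p = 0.0806). Causes of these differences were not tested.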

How the results depend on the processing

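Of the 10 genes in 4sU-seq, 4 were called by edgeR's test, against 1 under ERCC scaling, 7 with both replicates numbered 2 left out and 3 to 7 with each library left out. In RNA-seq 8 were called, and 7 to 8 with a library left out. For the difference between assays 2 were called, against 1 with library size alone, 1 with the gene span trend removed, 0 under ERCC scaling, 0 without a filter and 0 with RNA-seq KO replicates 1 and 2 added together (1, 3 and 2 of 9 at an unadjusted p under 0.05; DESeq2 called 2), and 0 to 3 with a library left out. Over all genes, the calls in 4sU-seq were 4166, against 716 under ERCC scaling, 10893 with both replicates numbered 2 left out and 1322 to 11673 with a library left out. In RNA-seq they were 9871, against 4239 with all 12 libraries in 1 fit and 8145 to 10151 with a library left out. For the difference they were 397, against 7 under ERCC scaling, 190 without a filter, 1060 with DESeq2, 683 with the span trend removed, 3927 with both 4sU-seq replicates numbered 2 left out, 108 with the RNA-seq KO replicates added together and 86 to 4364 with a library left out. In 4sU-seq and for the difference, the highest counts with a library left out were those without 4sU-seq KO replicate 2, and in RNA-seq the highest count over all genes was that without Ctrl replicate 2. The cause of these shifts was not tested.

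Same-numbered KO and Ctrl libraries deviated together with r of −0.16, 0.88 and 0.85 in 4sU-seq and −0.06, 0.21 and 0.31 in RNA-seq, and 4sU-seq KO replicate 1 correlated best with Ctrl replicate 3 (0.76), so the numbers were not taken as pairs. With the replicate block, 6907 genes were called in 4sU-seq, 657 for the difference, and 6 (AXIN2 and LGR4 in addition), 8 and 2 of the 10 genes in 4sU-seq, in RNA-seq and for the difference.

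Scaling moved the median log2 change of all genes from 0.05 to 0.27 (ERCC) and 0.14 (library size) in 4sU-seq and from 0.00 to 0.08 and 0.19 in RNA-seq. The share of calls that were higher in KO was 64.4%, 93.9% and 78.3% in 4sU-seq and 44.6%, 61.6% and 72.5% in RNA-seq, and for the difference 50.1%, 71.4% and 27.6%. The signs that reversed belonged to small changes. ZNRF3 in 4sU-seq was −0.030 with DESeq2 size factors or its Wald test, −0.058 without a filter, −0.24 with the span trend removed and −0.042 to 0.015 with a library left out. CD44 in 4sU-seq was −0.071 with the span trend removed. AXIN2 in RNA-seq was 0.017 under ERCC scaling, 0.12 with library size alone, 0.0048 at a mean of at least 50 counts and −0.11 to 0.034 with a library left out. For the difference, ERCC scaling gave 0.073 for ZNRF3, 0.030 for LGR4 and 0.090 for TCF7, LGR4 was 0.0053 with both 4sU-seq replicates numbered 2 left out and −0.34 to 0.057 with a library left out, and TCF7 was 0.0012 with the RNA-seq KO replicates added together and −0.12 to 0.064 with a library left out. RNF43 was −0.087 with library size alone, −0.048 with TMM over 12 libraries, −0.046 without a filter, −0.051 with the span trend removed, −0.0081 at a mean of at least 50 counts and −0.016 to 0.073 with a library left out. Depth limits little here: in RNA-seq every one of the 10 genes stood above the floor in every library, DACT1 in KO nearest to it.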
